A study of Mus musculus with 6 samples.

Results

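Heat shock chaperones were examined as a set of 10 genes in bulk RNA sequencing of haematopoietic stem cells, which renew the blood, from mouse bone marrow. The members were picked by gene name: Hspa1a, Hspa1b, Hspa8, Hspa5, Hsp90aa1, Hsp90ab1, Hsph1, Dnajb1, Hspd1 and Hspe1, matched to 10 of the 49585 Ensembl gene rows of each count table. Of these 10, 9 passed a filter on low counts that left 14785 genes for testing (Hspa1b did not pass). Cells came from the bone marrow of untreated C57BL/6 mice of 8 to 16 weeks, and the labels give no genetic change for either group. They were sorted as lineage-negative, Kit-positive, Sca-1-positive, CD48-negative, CD150-positive, CD34-negative and CD201-positive cells and went from the sorter into the lysis buffer. The groups were 3 CD38-positive libraries (high surface CD38, an enzyme that consumes NAD) and 3 CD38-negative libraries (low surface CD38). Each library pooled the cells of 10 mice. The design text matches the libraries in 3 pairs, so replicate 1 of each group forms pair 1, and so on. It does not say whether the libraries of a pair shared mice, a sort day or a preparation. P-values therefore measure the spread between these libraries, part of which may be technical.

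Heat shock proteins are chaperones: they bind unfolded or newly made proteins and help them fold, cross membranes or be degraded. Some are made at all times in nearly every cell (Hspa8, Hsp90ab1, Hspa5, and the mitochondrial pair Hspd1 and Hspe1). Others, above all Hspa1a and Hspa1b and in part Dnajb1, Hsph1 and Hsp90aa1, are switched on by the heat shock factor HSF1 when cells meet heat or other protein-damaging stress. Their transcripts can also appear during tissue dissociation and sorting, so the level of the inducible members beside the constitutive ones is a usual check on how sorted cells were handled.

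Total counts ranged from 16771180 to 18558610 per library. All 13 stem cell marker genes of a fixed list, among them Kit, Ly6a, Slamf1, Procr and Mecom, had reads in every library. Granulocyte genes were also abundant: the 14 genes of that list summed to between 72104 and 163250 CPM over the 6 libraries. CPM is a gene's count scaled to a common library total, here after TMM normalisation, which adjusts for differences in composition. The 10 chaperones together took 0.81% to 1.07% of the counts of a library, on average 0.930% ± 0.134 for the CD38-positive and 0.876% ± 0.0486 for the CD38-negative group (SD, n = 3 each). In bulk RNA, fewer cells of a type and less RNA per cell cannot be told apart.

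The promoters of 7 of the 10 members were found in the RefSeq windows on GRCm38.p6; Hspa8, Hsp90aa1 and Hsp90ab1 were not matched. The 250 bases before the RefSeq start are shown for 5 of them, read 5′ to 3′ on the gene's own strand, because they show how alike the inducible pair is and which members share a control region. Capitals mark paired heat shock units, the letters GAANNTTC or TTCNNGAA that HSF1 is known to bind, and in Hspa5 an ER stress element, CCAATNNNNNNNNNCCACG, both searched on both strands.
Hspa1a (chr17:34972157-34972406, minus strand): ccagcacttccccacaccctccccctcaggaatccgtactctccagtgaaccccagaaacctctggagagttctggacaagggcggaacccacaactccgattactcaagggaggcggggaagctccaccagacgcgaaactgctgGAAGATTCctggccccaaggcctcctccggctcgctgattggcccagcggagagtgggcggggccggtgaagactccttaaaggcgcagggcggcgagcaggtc
Hspa1b (chr17:34959239-34959488, minus strand): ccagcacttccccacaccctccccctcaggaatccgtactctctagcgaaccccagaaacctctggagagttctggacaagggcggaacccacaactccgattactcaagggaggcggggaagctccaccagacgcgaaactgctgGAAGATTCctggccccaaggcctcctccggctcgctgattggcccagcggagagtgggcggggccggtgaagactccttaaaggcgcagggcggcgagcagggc
Hsph1 (chr5:149636337-149636586, minus strand): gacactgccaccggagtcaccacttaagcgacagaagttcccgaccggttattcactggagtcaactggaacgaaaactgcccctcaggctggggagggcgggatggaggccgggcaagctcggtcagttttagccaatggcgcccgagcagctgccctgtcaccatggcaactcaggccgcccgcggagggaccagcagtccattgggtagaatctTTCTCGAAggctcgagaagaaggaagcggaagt
Hspe1 (chr1:55087898-55088147, plus strand): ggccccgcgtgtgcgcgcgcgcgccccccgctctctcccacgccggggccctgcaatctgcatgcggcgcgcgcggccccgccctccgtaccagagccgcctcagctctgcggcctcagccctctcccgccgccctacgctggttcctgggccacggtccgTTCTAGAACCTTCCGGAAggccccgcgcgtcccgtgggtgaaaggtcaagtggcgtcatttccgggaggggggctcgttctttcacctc
Hspa5 (chr2:34771840-34772089, plus strand): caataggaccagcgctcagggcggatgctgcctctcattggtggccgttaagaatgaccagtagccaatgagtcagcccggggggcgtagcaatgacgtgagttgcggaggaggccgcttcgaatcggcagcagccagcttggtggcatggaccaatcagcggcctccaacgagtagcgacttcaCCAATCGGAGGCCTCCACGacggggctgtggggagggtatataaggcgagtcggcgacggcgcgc

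The Hspa1a and Hspa1b promoters were identical at 247 of 250 bases, and each held 1 paired heat shock unit 96 bases before the start. Hsph1 held 1 such unit, 25 bases before its start. Hspe1 held 3 overlapping units that form 1 run, from 71 to 81 bases before the start at their near ends. Hspd1, which encodes the partner of Hspe1, is transcribed the other way from the same stretch: the starts lie 215 bases apart for 1 of its windows, and the same run of units lies in both promoters. The other Hspd1 window and both windows of Dnajb1 had no match. The Dnajb1 window at chr8:83608298-83608547 lies wholly inside the annotated gene (83608193 to 83612653), past its annotated start. A paired unit occurs in 12.8% of the 32851 promoter windows of this length. Hspa5 held 1 ER stress element, 46 bases before its start, which 0.113% of windows hold, and no paired heat shock unit. CCAAT boxes, a common promoter element present in 33.8% of windows, numbered 4 in Hspa5, with 1 inside the ER stress element, 2 in Hsph1 and 1 each in Hspa1a and Hspa1b. These are letter matches only and say nothing of binding in these cells.

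How much of each transcript is unlike every other annotated gene decides how many of its reads can be placed. The longest GENCODE transcript of each member was cut into all stretches of 50 and of 100 bases, and each was looked up in the transcripts of all other genes on either strand. The read length is not given in the sources used here. Hspa1a shared 66.3% of its 50-base and 56.5% of its 100-base positions with another gene, and Hspa1b shared 62.3% and 49.9%. Most of that was the pair itself, with 1716 positions of 50 bases in common. Hspa8, the constitutive cytosolic HSP70, shared 52.7% and 32.1%, mainly with processed pseudogenes such as Gm15459 and with the non-coding RNA gene Gm26825. Hsp90aa1 shared 58.5% and 47.5% and Hspd1 44.8% and 26.9%, again mainly with processed pseudogenes. Hspa5 and Hsph1 shared no position at either length. Rows of other genes that share sequence with Hspa8 held 13007 reads in all, 4.14% of the 314294 reads of Hspa8, and those for Hspd1 held 1.73% of its 60639. For the inducible pair the shared rows weighed far more: Gm20481, Hspa1l and Gm10501, which share sequence with both genes, held 189 reads in all, 82.9% of the 228 reads of Hspa1a and many times the 7 reads of Hspa1b. How reads with several matches were counted is not given in the sources used here, and levels of Hspa1a, Hspa1b, Hsp90aa1, Hspa8 and Hspd1 carry that limit.

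**Figure D1:**
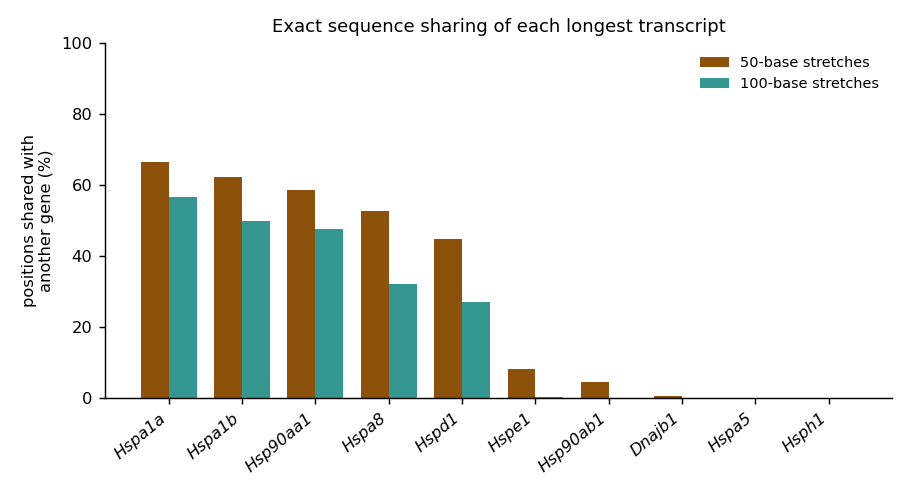
Share of start positions (percent, y axis) in the longest transcript of each member (x axis) whose next 50 or 100 bases occur exactly in another annotated gene. Hspa1a and Hspa1b stand at 66.3% and 62.3% for 50 bases, and Hspa5 and Hsph1 at 0.

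Per kilobase of longest transcript, the members spanned several orders of magnitude. Hsp90ab1, the constitutive cytosolic HSP90, had the highest median over the 6 libraries, 936 CPM per kilobase (range 725 to 1483), followed by Hspa8 with 896 (863 to 1261). These ranges overlap, and so the order of the 2 genes is not set by these data. Hspa5, the HSP70 of the endoplasmic reticulum (BiP), came next with 455 CPM per kilobase (393 to 599.7), apart from its neighbours on both sides at this length. With unique 50-base positions as length it was not set apart: the medians were 461 for Hspa5, 432 for Hsp90aa1 and 423 for Hspd1. The mitochondrial chaperonin Hspd1 (HSP60) had 229 (187 to 352), its co-chaperonin Hspe1 (HSP10) 228 (203 to 269), and the stress-responsive HSP90 gene Hsp90aa1 177 (144 to 217), with overlapping ranges. The HSP70 co-chaperones Dnajb1 (an HSP40, which delivers substrates) and Hsph1 (HSP110, which exchanges nucleotide) had 59.1 (52.9 to 73.5) and 40.5 (36.7 to 63.1). Hspa1a had 0.622 CPM per kilobase (0.286 to 1.76), and Hspa1b a median of 0.0101 (0 to 0.107). By mean CPM among the 14785 tested genes, Hspa8 ranked 18, Hsp90ab1 25, Hspa5 42 and Hspa1a 12009.

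**Figure D2:**
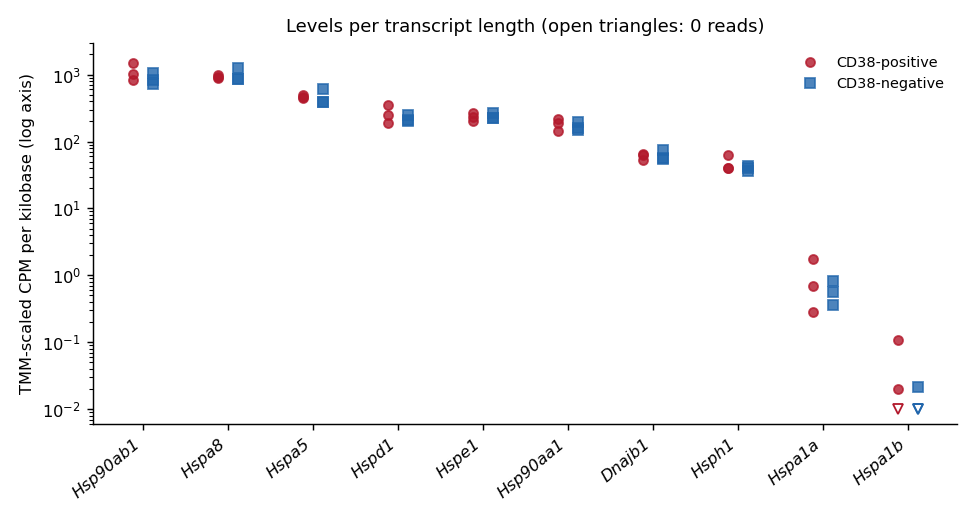
TMM-scaled CPM per kilobase of longest transcript (y axis, log scale) for each member (x axis, ordered by median); circles are CD38-positive and squares CD38-negative libraries, and open triangles at the foot mark libraries with 0 reads. Hspa1a lies between 0.286 and 1.76, while the lowest value of Hspa8 is 863.

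Within each library, the inducible HSP70 pair was a small part of the constitutive level. Hspa1a and Hspa1b summed came to 0.212%, 0.0336% and 0.0695% of the Hspa8 level per kilobase in CD38-positive replicates 1, 2 and 3. Their CD38-negative partners had shares of 0.0419%, 0.0946% and 0.0459%. When only positions unique at 50 bases were counted as length, Hspa1a stood at 0.0442% to 0.281% of Hspa8 over the 6 libraries, and at 100 bases at 0.0492% to 0.312%. Dnajb1 stood at 5.83% to 7.21% and Hsph1 at 3.47% to 6.93% of Hspa8 per kilobase. Both shares were lower over positions unique at 50 bases, where median levels were 60.3 for Dnajb1, 40.9 for Hsph1 and 1922 for Hspa8. The inducible and constitutive HSP90 genes were closer: Hsp90aa1 had 0.129 to 0.223 times the Hsp90ab1 level per kilobase, or 0.296 to 0.51 times over positions unique at 50 bases.

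Hspa1a (ENSMUSG00000091971, GRCm38 chromosome 17, 34969190 to 34972156, minus strand, a single-exon gene) gave 87, 15 and 37 reads in replicates 1, 2 and 3 of the CD38-positive group. In the CD38-negative partners it gave 18, 44 and 27 reads. CD38-positive replicate 1 stood above the rest: the exact Poisson 95% interval of its count, 69.7 to 107, lay above that of the next library, 32.0 to 59.1, where both cover counting error only. The groups overlapped, with a CD38-positive mean of 2.70 ± 2.26 CPM and a CD38-negative mean of 1.72 ± 0.690 CPM (SD, n = 3 each). The log2 fold change, CD38-positive relative to CD38-negative, was 0.39 (SE 0.61, 95% interval -0.93 to 1.70; edgeR quasi-likelihood adjusted p = 0.958). The pairs did not share a direction, at 2.17, -1.41 and 0.29. Without pair 1 the log2 fold change was -0.58 and without pair 2 it was 1.28, so the sign turned on pair 1.

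Hspa1b (ENSMUSG00000090877, chromosome 17, 34956436 to 34959238, minus strand) had 5, 1 and 0 reads in the CD38-positive and 0, 0 and 1 in the CD38-negative libraries. A count of 0 allows up to 3 reads, or 0.166 to 0.183 CPM; only the 5 reads of CD38-positive replicate 1 lay above that, and no fold is given. The gene Gm20481 is annotated on the opposite strand inside Hspa1a, with all 564 of its exon bases over the Hspa1a exon. It had 34, 7 and 15 reads in CD38-positive and 7, 23 and 11 in CD38-negative replicates 1, 2 and 3. Its libraries ranked in the same order as those of Hspa1a, with a tie at the lowest value. The strand setting is not stated, so it is not known whether the reads counted for each gene came from its own strand.

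The co-chaperones of HSP70 were moderately abundant. Dnajb1 (ENSMUSG00000005483, chromosome 8, 83608193 to 83612653) was at 159, 196 and 185 CPM in the CD38-positive and 169, 164 and 220.1 CPM in the CD38-negative libraries. Its groups overlapped and its log2 fold change was -0.026 (SE 0.19, 95% interval -0.44 to 0.39; edgeR adjusted p = 0.99). Hsph1 (ENSMUSG00000029657, chromosome 5, 149614287 to 149636376) was at 194, 300.5 and 191 CPM in the CD38-positive and 192, 175 and 209 CPM in the CD38-negative libraries. CD38-positive replicate 2 was the high library; the other 5 lay between 175 and 209 CPM. The log2 fold change was 0.22 (SE 0.21, 95% interval -0.24 to 0.68; edgeR adjusted p = 0.936) and became -0.068 without pair 2.

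The constitutive cytosolic chaperones Hspa8 and Hsp90ab1 and the stress-responsive Hsp90aa1 did not pass the test either. Hspa8 (ENSMUSG00000015656, chromosome 9, 40800984 to 40810087), which folds new proteins and uncoats clathrin vesicles, was at 2783, 2874 and 3128 CPM in the CD38-positive libraries. In the CD38-negative libraries it was at 2725, 2751 and 3982 CPM. CD38-negative replicate 3 was the high library, and the log2 fold change was -0.085 (SE 0.21, 95% interval -0.54 to 0.37; edgeR adjusted p = 0.97). Hsp90ab1 (ENSMUSG00000023944, chromosome 17, 45567775 to 45573271), which holds kinases and receptors in a form ready for activation, was at 2596, 3737 and 2121 CPM in the CD38-positive libraries. Its CD38-negative values were 2669.6, 2096 and 1828 CPM. The log2 fold change was 0.34 (SE 0.23, 95% interval -0.16 to 0.83; edgeR adjusted p = 0.93), the pairs gave -0.040, 0.83 and 0.21, and without pair 2 the value was 0.08. Hsp90aa1 (ENSMUSG00000021270, chromosome 12, 110690605 to 110702728) was at 712, 629 and 472 CPM in the CD38-positive and 640.0, 482 and 529.7 CPM in the CD38-negative libraries. The groups overlapped, and the log2 fold change was 0.12 (SE 0.20, 95% interval -0.31 to 0.56; edgeR adjusted p = 0.958).

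**Figure D3:**
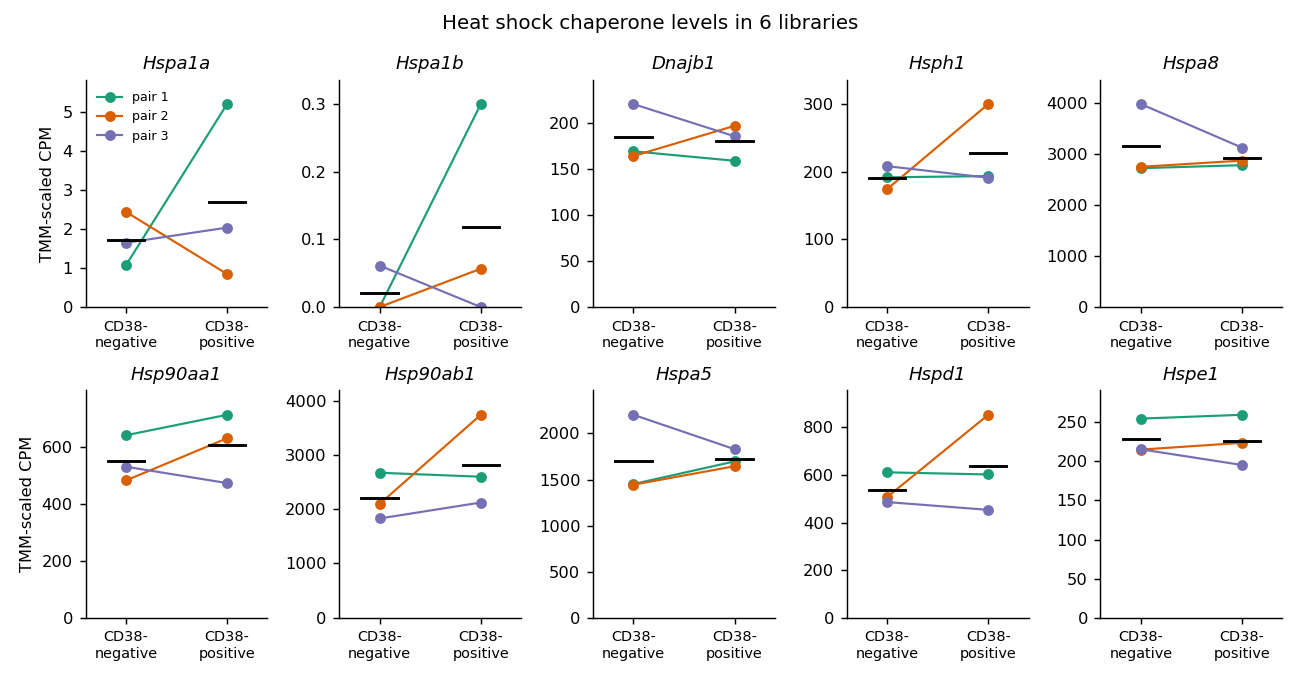
TMM-scaled CPM (y axis, from 0) of each member in the CD38-negative and CD38-positive libraries (x axis); lines join the libraries of a pair and black bars are group means (n = 3). The groups overlap in all 10 panels, and the pair 2 line climbs in every panel but that of Hspa1a, most steeply among the tested members in Hsp90ab1, Hsph1 and Hspd1 (0.83, 0.78 and 0.75 on the log2 scale).

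Hspa5 (ENSMUSG00000026864, chromosome 2, 34771970 to 34777547), the main chaperone of the endoplasmic reticulum and a restraint on its stress sensors, was at 1696, 1644 and 1829 CPM in the CD38-positive libraries. In the CD38-negative libraries it was at 1451, 1444 and 2202 CPM. The CD38-negative group held both the lowest values and the highest, and the log2 fold change was 0.049 (SE 0.21, 95% interval -0.40 to 0.50; edgeR adjusted p = 0.982). Hspa5 followed Hspa8 closely across libraries. Its level per kilobase was 0.524, 0.492 and 0.503 times that of Hspa8 in the CD38-positive and 0.458, 0.451 and 0.476 times in the CD38-negative libraries. This was the 1 ratio among the 36 between tested members whose groups did not overlap. It was picked out after its values were seen. For comparison, 4.65% of the other 14784 tested genes have a ratio to Hspa8 whose groups do not overlap.

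The mitochondrial chaperonin genes share a promoter stretch but did not keep a fixed ratio. Hspd1 (ENSMUSG00000025980, chromosome 1, 55077835 to 55088243, minus strand) was at 602, 852 and 453 CPM in the CD38-positive and 611, 507 and 486 CPM in the CD38-negative libraries. Hspe1 (ENSMUSG00000073676, chromosome 1, 55088132 to 55091307, plus strand) was at 259.6, 224 and 195 CPM in the CD38-positive and 255, 215 and 215 CPM in the CD38-negative libraries. CD38-positive replicate 2 was the high library for Hspd1 but lay in the middle for Hspe1. Per kilobase of longest transcript, Hspe1 therefore stood at 0.66 times Hspd1 in that library and at 1.05 to 1.11 times in the other 5. The size of this ratio depends on the length used. With merged exons as length the medians were 149 for Hspe1 and 210 for Hspd1, and with unique 50-base positions 261 and 423. The annotated exons of the genes overlap by 112 bases on opposite strands. Log2 fold changes were 0.21 for Hspd1 (SE 0.22, 95% interval -0.26 to 0.68; edgeR adjusted p = 0.94) and -0.019 for Hspe1 (SE 0.19, 95% interval -0.42 to 0.38; edgeR adjusted p = 0.992). Without pair 2 the value for Hspd1 was -0.073.

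With pairs as a replicate block in edgeR's quasi-likelihood fit, 0 of the 9 tested members passed a Benjamini-Hochberg adjusted p-value of 0.05, where 0.0135% of all tested genes did. Without adjustment, 0 members had a p-value under 0.05 in edgeR, DESeq2 or limma-voom, against 5.08% of all genes in edgeR. Of the 9, 6 had a log2 fold change above 0, against 50.1% of all genes. Their median was 0.12, with a range of -0.085 to 0.39, and the median of all tested genes was 0.00. The groups of 3 overlapped for all 10 members, while 6.53% of tested genes had groups that did not. Among the tested members 0 moved the same way in all 3 pairs, against 24.5% of tested genes. The widest interval was that of Hspa1a, whose fold change could lie between 0.525 and 3.26. For the other 8 the 95% intervals ran from 0.686-fold at the lowest to 1.77-fold at the highest.

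**Figure D4:**
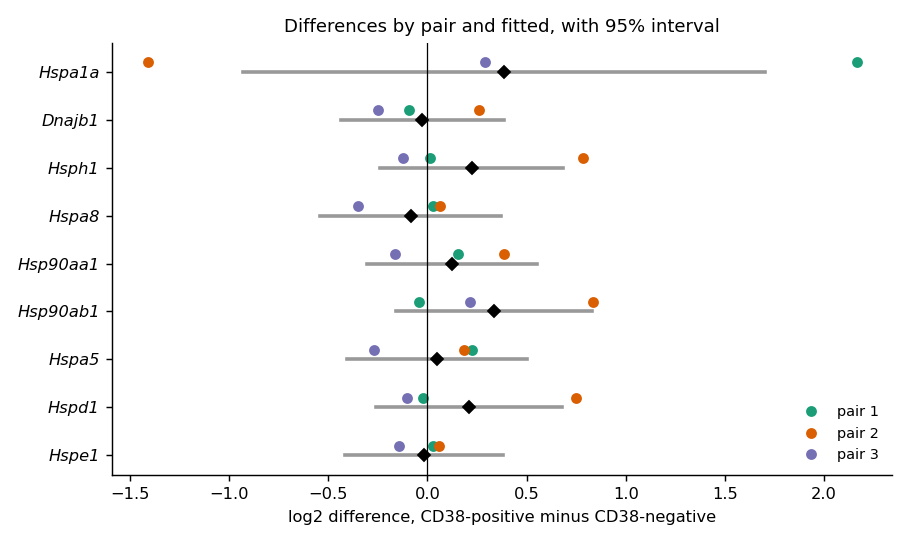
Log2 difference, CD38-positive minus CD38-negative (x axis), for each tested member (y axis); circles are the 3 pairs, diamonds the edgeR estimate and grey bars its 95% interval. Each grey bar crosses 0, and the Hspa1a pairs reach from -1.41 to 2.17.

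The same model was used to ask whether members differed between the 3 pairs, measured against the spread left after population. Here 0 of 9 members passed in edgeR (adjusted p from 0.567 for Hsp90ab1 to 0.835 for Hsph1), against 0.115% of all tested genes. Unadjusted p-values under 0.05 numbered 0 among members in each of edgeR, DESeq2 and limma-voom, against 13.5% of all genes in edgeR. The standard deviation of log2 CPM over the 6 libraries had a median of 0.24 for the 9 members. It was 0.35 for all tested genes and 0.24 for the 2064 genes with a mean of at least 100 CPM, a class that holds 8 of the members. Hspe1 had the smallest value among the members, 0.16, and Hspa1a the largest, 0.88.

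The members did not vary as a single block across libraries. CD38-positive replicate 2 held the highest level of Hsp90ab1, Hspd1 and Hsph1, which lay 0.62, 0.58 and 0.54 above their own mean on the log2 scale. CD38-negative replicate 3 held the highest level of Hspa8, Hspa5 and Dnajb1, at 0.40, 0.38 and 0.28 above their mean. In that library Hsp90ab1 was at its lowest, 0.42 below its mean, or -0.42. Over the 6 libraries, Pearson's r of log2 CPM was 0.96 between Hsp90ab1 and Hspd1, 0.93 between Hspa8 and Hspa5, and 0.90 between Hsp90aa1 and Hspe1. It was -0.58 between Hspa8 and Hsp90ab1, 0.47 between Hspd1 and Hspe1, and -0.53 between Hspa1a and Dnajb1. These values describe 6 libraries of like depth and share their scaling.

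**Figure D5:**
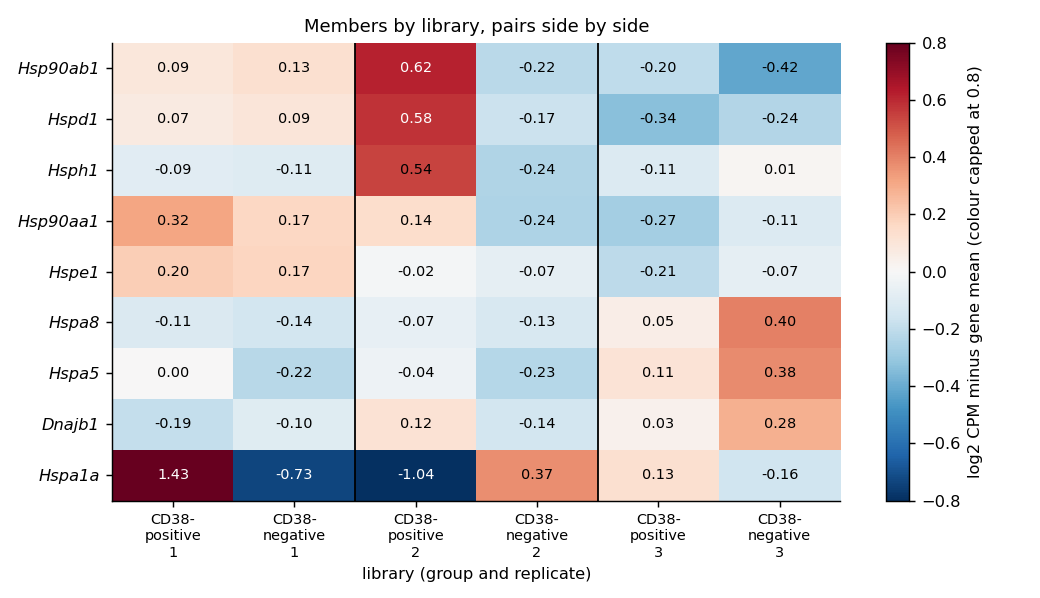
Log2 CPM of each tested member (rows) in each library (columns, the libraries of a pair side by side), minus the gene's mean over the 6 libraries; colours are capped at 0.8 in either direction. Hsp90ab1, Hspd1 and Hsph1 are highest in CD38-positive replicate 2, and Hspa8, Hspa5 and Dnajb1 in CD38-negative replicate 3.

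Markers of other cells also differed in those libraries. The 12 plasma cell and B cell genes summed to 3544 CPM in CD38-negative replicate 3, and to 351 to 1830 CPM in the other 5 libraries. The 14 granulocyte genes summed to 130720 CPM there, within the range of the others, and to 72104 CPM, their lowest, in CD38-positive replicate 2. In CD38-positive replicate 1, where Hspa1a was highest, the granulocyte genes were at their highest, 163250 CPM, as were the 9 erythroid genes, 9012 CPM. The monocyte and macrophage, T and NK cell, and megakaryocyte lists were also highest there, at 14868, 345 and 285 CPM, against at most 11672, 304 and 189 CPM in the other libraries. The sum of the 13 stem cell genes was at its lowest there, 896 CPM against 1137 to 2479 CPM in the other 5. By gene, Kit and Ly6a were lowest in CD38-positive replicate 2, and Slamf1, Fgd5, Hoxb5, Ctnnal1 and Mllt3 in CD38-negative replicate 1. Most of the monocyte and macrophage sum was Lyz2 (5327 to 14167 CPM). Lyz2, Ly86, Cd68 and Ccr2 were highest in CD38-positive replicate 1. Csf1r, Cx3cr1, Adgre1, C1qa, C1qb and Vcam1 were highest in CD38-positive replicate 2 instead. In the megakaryocyte list, Pf4, Ppbp, Gp9 and Gp1ba were highest in CD38-positive replicate 1, while Itga2b, Vwf and Itgb3 were highest in other libraries. Ermap and Epor of the erythroid list were highest in CD38-negative replicate 1, and Camp of the granulocyte list in CD38-negative replicate 3. Cd4, Klrb1c, Gzma and Ncr1 of the T and NK cell list were also highest in other libraries than CD38-positive replicate 1. All genes of the granulocyte, plasma and B cell, erythroid, monocyte and megakaryocyte lists had reads in every library, and 7 of the 9 T and NK cell genes did; most of that sum was Nkg7 (118 to 314 CPM), and Cd3e was at 0 in CD38-positive replicate 3 and in the 3 CD38-negative libraries. The part of these cells in the chaperone levels was not tested.

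By a set rule, the genes most like 2 averages of members were listed among 8729 other genes with a mean of at least 10 CPM, as a description over 6 libraries. For the mean of Hspa8, Hsp90ab1, Hspd1 and Hspe1 they were Mto1, Nup54, Ola1, Dus1l, Nup62 and Tcp1, with Pearson's r from 0.992 to 0.997. Tcp1, a subunit of the cytosolic chaperonin CCT, was at 983 CPM in CD38-positive replicate 2 and at 559 to 742 CPM in the other libraries. For the mean of Hspa1a, Hspa1b, Dnajb1 and Hsph1 they were Ice1, Ip6k1, Adk, Lsm14a, Fam102b and BC035044, with r from 0.919 to 0.991. That average was set by CD38-positive replicate 1 (0.62 on the log2 scale, against -0.36 to 0.06 in the others), where Hspa1a and Hspa1b had most reads.

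The wider chaperone network was read from lists of named genes. Among genes of the cytosolic HSP70 system, 23 of 25 were tested and 0 passed the adjusted threshold in either direction in edgeR. At an unadjusted p-value under 0.05, 0 were higher and 1 was lower in CD38-positive cells, where 2.47% of all tested genes were higher and 2.61% lower. That gene was Bag4, a nucleotide exchange factor of HSP70, with a CD38-positive mean of 9.67 ± 1.68 CPM and a CD38-negative mean of 14.5 ± 3.41 CPM (SD, n = 3 each), lower in 3 of 3 pairs (log2 fold change -0.57, edgeR adjusted p = 0.926). The list's median log2 fold change was 0.07. Dnaja2, an HSP40, was at 405 ± 115 CPM against 290.2 ± 69.3 CPM, and was higher in 2 of 3 pairs. Hspa4, an HSP110 relative of Hsph1, was at 324 ± 107 CPM against 239.9 ± 36.1 CPM and higher in 3 of 3 pairs, mostly through pair 2 (441 against 223 CPM). Between pairs, Dnajc5, an HSP40 of secretory vesicles, had an unadjusted p-value of 0.0516, with 72.0 to 77.1 CPM in pair 3 and 92.3 to 118 CPM elsewhere.

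Of 18 names listed for the HSP90 system, 17 matched a counted gene (Tah1 did not). All 17 were tested and 0 passed, with 0 at an unadjusted p-value under 0.05. Their median log2 fold change was 0.18, and 15 of the 17 were above 0, against 50.1% of all genes. CD38-positive replicate 2 stood apart, with a summed level of 4921 CPM for this list against 3403 to 4130.4 CPM in the other 5 libraries. Hsp90b1, the HSP90 of the endoplasmic reticulum, was at 1126 ± 124 CPM against 909.6 ± 145 CPM (SD, n = 3 each) and higher in 3 of 3 pairs (log2 fold change 0.31, edgeR adjusted p = 0.93). Unc45a, a chaperone of myosin, was at 28.5 ± 5.94 CPM against 23.4 ± 8.15 CPM (edgeR adjusted p = 0.932). Ptges3 (p23), a co-chaperone that stabilises the closed HSP90 clamp, had the smallest p-value between pairs in this list (unadjusted 0.00786 in edgeR, adjusted p = 0.22). It was at 224 and 175 CPM in pair 2 and at 94.6 to 152 CPM in the other libraries. The 14 genes of CCT and prefoldin, which fold actin and tubulin, had 0 past either threshold and a median of -0.01. The prefoldin subunit genes Pfdn6 and Pfdn1 were at 51.9 ± 21.6 against 69.6 ± 10.5 CPM and at 60.9 ± 12.4 against 76.1 ± 16.0 CPM, each lower in 2 of 3 pairs (edgeR adjusted p = 0.926 for both). Cct2 was at 501 CPM in CD38-positive replicate 2 and at 263 to 398 CPM elsewhere.

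For 13 mitochondrial chaperones and proteases, 0 passed and 0 had an unadjusted p-value under 0.05, with a median of 0.04. The protease genes Yme1l1 and Clpp were lower in CD38-positive cells in 3 of 3 pairs, at -0.26 and -0.20 on the log2 scale (edgeR adjusted p = 0.932 and 0.936). Between pairs, the smallest unadjusted p-values were 0.154 for Dnaja3, a mitochondrial HSP40, and 0.184 for Grpel2, an exchange factor. Of 29 genes of endoplasmic reticulum chaperones and the unfolded protein response, 0 passed and 0 had an unadjusted p-value under 0.05 between populations, with 19 above 0 and a median of 0.10. Between pairs, 7 of the 29 had an unadjusted p-value under 0.05, beside 13.5% of all genes, and 0 passed after adjustment in edgeR. Hyou1, an HSP110 of the endoplasmic reticulum, was at 40.8 CPM in CD38-negative replicate 2 and at 8.32 to 17.5 CPM in the others (unadjusted p between pairs 0.00259). Atf4, the transcription factor of the integrated stress response, was at 87.4 and 88.0 CPM in pair 1, 65.0 and 38.2 CPM in pair 2, and 50.1 and 43.9 CPM in pair 3 (unadjusted p between pairs 0.00448). Eif2ak3 (PERK), a stress sensor of that compartment, was at 11.2 ± 3.17 against 7.70 ± 1.86 CPM and higher in 3 of 3 pairs (edgeR adjusted p = 0.926). P4hb, a protein disulphide isomerase, was at 1333 ± 362 CPM against 966 ± 163 CPM and higher in 3 of 3 pairs, mostly through pair 2 (1740.4 against 840.1 CPM there, 1209.5 against 1151 CPM in pair 1 and 1049.6 against 908 CPM in pair 3; edgeR adjusted p = 0.926).

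Heat shock factors and other heat-inducible genes formed a further list. Of 22 listed, 21 were tested, 0 passed between populations and 0 had an unadjusted p-value under 0.05, with a median of 0.10. The lists overlap, so their counts and medians are not separate results. Bag3, Dnaja1, Dnaja4, Dnajb4 and Hspa4l are also in the HSP70 list, and Ahsa1, Cacybp, Chordc1, Fkbp4 and Stip1 in the HSP90 list. The HSP90 list also shares Hsp90b1 with the endoplasmic reticulum list and Trap1 with the mitochondrial list. Bag3, a co-chaperone induced with Hspa1a under stress, had a CD38-positive mean of 12.2 ± 1.39 CPM and a CD38-negative mean of 17.6 ± 4.44 CPM (SD, n = 3 each). It was lower in 3 of 3 pairs, and the log2 difference was -0.50 (SE 0.26, edgeR adjusted p = 0.926). Hmox1, which breaks down haem, was at 67.9 ± 9.43 against 51.8 ± 14.8 CPM and higher in 2 of 3 pairs (edgeR adjusted p = 0.926). Hspb1, which encodes the small heat shock protein HSP27, was at 0.48 to 1.71 CPM in CD38-positive and 0.179 to 0.945 CPM in CD38-negative libraries. Hspb8, another small heat shock protein gene, was at 1.44 and 2.98 CPM in pair 1 and at 4.70 to 7.01 CPM in the other libraries (unadjusted p between pairs 0.00387, adjusted p = 0.179 in edgeR).

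Immediate early genes, the other class often seen after cell isolation, were set beside the chaperones. Of 23 listed names, of which Cyr61 and Ccn1 stand for 1 gene, 22 matched a counted gene and 20 were tested. Of these, 0 passed. At an unadjusted p-value under 0.05 in edgeR, 3 were higher and 0 lower, where 2.47% of all tested genes were higher and 2.61% lower. Their summed level was 643, 800 and 1195 CPM in CD38-positive and 658, 809 and 785 CPM in CD38-negative replicates 1, 2 and 3. CD38-positive replicate 1, which had the most Hspa1a reads, had the lowest early gene sum, with its pair 1 partner close to it (643 and 658 CPM). CD38-positive replicate 3 had the highest sum. Fos, a subunit of the AP-1 transcription factor, was at 66.1, 51.3 and 84.7 CPM in CD38-positive and 26.8, 23.4 and 31.7 CPM in CD38-negative replicates, and just missed the threshold (edgeR adjusted p = 0.0535). Atf3, a stress-induced transcription factor, was at 2.66 ± 1.18 CPM against 0.964 ± 0.509 CPM and higher in 3 of 3 pairs (log2 fold change 1.47, SE 0.51, edgeR adjusted p = 0.925). The other of the 3 was Btg2, an antiproliferative gene (log2 fold change 0.53, edgeR adjusted p = 0.925), which lies outside the rule for named genes and was added after its values were seen. Between pairs, 8 of the 20 had an unadjusted p-value under 0.05, beside 13.5% of all genes, and 0 passed. Ier2 had the smallest, 0.000106 (edgeR adjusted p = 0.068), with 31.8 and 51.9 CPM in pair 1 and 80.9 to 154 CPM in the other libraries. Egr1 came next (edgeR adjusted p = 0.097), at 112 CPM in CD38-positive replicate 3 and 19.9 to 63.2 CPM elsewhere.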

How the data were processed

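The authors deposited 1 table of whole-number counts by Ensembl identifier for each of the 6 libraries. The submitters' processing notes name cutadapt, STAR, HTSeq 0.6.1p1 and the builds GRCm38 and mm10; strand setting, treatment of multiply mapped reads, read length and annotation release are not given in the sources used here. Symbols matched 49326 of 49585 identifiers. Coordinates and lengths came from GENCODE M21 (GRCm38).

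Genes were kept with filterByExpr, scaled by TMM and tested with edgeR 4.0.16 (R 4.3.3) by the quasi-likelihood F-test with pair and population as terms, fitted to the whole table, and Benjamini-Hochberg adjustment at 0.05. Standard errors and 95% intervals were derived from the quasi-F statistic. The pairing comes from the series' design text; within pairs, the libraries' deviations from their group means had correlations of 0.34, 0.12 and 0.24. Log2 CPM used a prior count of 2. Shares of counts in single libraries had 95% Wilson intervals of 0.806% to 0.814% at the lowest and 1.07% to 1.08% at the highest; intervals and floors (3 counts) cover counting error only, as the labels describe no molecular identifiers. The procedure was tested on simulated data. No libraries of a group agreed within sampling noise (chi-square over degrees of freedom 47.4 to 106).

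All members were named; from each pathway list, genes past the threshold and otherwise the 2 with the smallest p-values in each comparison, were named; other genes in the text are markers or the 6 most correlated with 2 averages of members. The members and lists were chosen with earlier results of these data known. Alternatives were no block, DESeq2 1.42.0, limma-voom (limma 3.58.1), other scalings, filters and lengths, leaving out each pair, and summing Hspa1a and Hspa1b.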

Additional observations from a re-analysis of the deposited data

How the results depend on the processing

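No member passed the threshold under any alternative run, between populations or between pairs, in edgeR, DESeq2 or limma-voom (0 each); without pair 2, Hspa1a had an unadjusted p-value of 0.0187 between populations and Hsp90aa1 one of 0.0401 between pairs (edgeR adjusted p = 0.9999 and 0.229). Of 99 alternative values for the 9 tested members, 89 kept their sign and 10 changed it. Each change came when a pair was left out, and only Hsp90ab1 kept its sign in all of those fits. The other alternatives used the same 6 libraries. Log2 fold changes across the fits without replicate 1, 2 or 3 ranged from -0.58 to 1.28 for Hspa1a, -0.17 to 0.046 for Hspa8, -0.040 to 0.21 for Hspa5, -0.018 to 0.27 for Hsp90aa1, 0.08 to 0.52 for Hsp90ab1, -0.068 to 0.40 for Hsph1, -0.18 to 0.085 for Dnajb1, -0.073 to 0.36 for Hspd1 and -0.069 to 0.041 for Hspe1. Without the replicate block Hspa1a was at 0.64 (adjusted p = 0.994; 0.855 to 0.9999 over its alternatives), and the block changed no call of a member.

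The number of all genes past the threshold between populations, 2 with the replicate block, was 0 without the replicate block (417 at an unadjusted p under 0.05), 11 in DESeq2, 7 with DESeq2 size factors, 0 with unscaled totals (595 unadjusted), 80 with no filter and 13 with a mean of at least 10 counts; fits without 1 pair gave 2 to 41. Between pairs, 17 became 329 in DESeq2, 7 with unscaled totals, 694 with no filter and 29 with a mean of at least 10 counts, with 5 to 933 in fits without 1 pair. The cause was not tested. In the order of levels per kilobase, 10 of 10 members kept their place with merged exons and 6 with unscaled totals, where Hspa8 changed place with Hsp90ab1 and Hspd1 with Hspe1. With unique 50-base or 100-base positions as length, alternatives chosen after seeing the data, 5 kept it at each length; Hspa8 then came first and Hsp90aa1 moved from place 6 to place 4. Depth limits Hspa1b, with 7 reads in all.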
